A study of Arabidopsis thaliana with 6 samples.

Results

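CLE41, CLE44, CLE45 and CLE22 encode precursors of secreted CLE peptides, and their RNA was measured in Arabidopsis suspension cells with and without induction of the transcription factor ATHB8. The 4 genes were chosen by name, as every row of the array whose annotation names CLE41 (AT3G24770), CLE44 (AT4G13195), CLE45 (AT1G69588) or CLE22 (AT5G12235). Each has 1 row, so the 4 genes are 4 of the 16542 gene names with a row of their own and 4 of the 17 measured genes of the CLE family. The induced group consisted of 3 arrays from cells that carry an estrogen-inducible fusion of ATHB8 and green fluorescent protein and had received 5 µM estrogen for 24 h. The uninduced group consisted of 3 arrays from the same transformed cells, sampled at 24 h without estrogen. All cells grew in suspension in the dark, and the labels name the culture Alex. Both groups carry the transgene, and no untransformed cells with estrogen were among the samples, so effects of estrogen itself and of ATHB8 cannot be told apart. The labels do not say whether the transformed cells descend from 1 clone or whether each replicate came from a culture of its own. Without that, the spread behind the p-values may be technical alone.

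CLE precursors are cut to short peptides that leave the cell and are read by leucine-rich repeat receptor kinases on neighbouring cells. CLE41 and CLE44 give the same peptide, known as TDIF, which phloem cells secrete and which the receptor TDR (also called PXY) reads in procambium, the dividing tissue between phloem and xylem. Through TDR the peptide keeps procambium cells dividing, by way of the homeobox gene WOX4, and holds back their differentiation into xylem, by way of the kinase BIN2. CLE45 acts in the root tip, where its peptide, read by the receptor BAM3, holds back the differentiation of the first phloem cells. ATHB8 belongs to the class III homeodomain leucine zipper family and is known as an early marker of procambium.

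Each array gave a deposited log2 signal for 38408 rows. The median log2 signal lay between 5.84 and 5.95 on the induced arrays and between 5.80 and 5.95 on the uninduced arrays. The replicate 1 arrays of both groups held exactly equal values in 31.8% of the rows, with 58.5% in the second decile of mean signal and 9.27% in the highest. How these equal values arose was not tested. In such a row the difference within pair 1, the arrays numbered 1, is 0 by its values. Each row was tested with limma, and a row was called at a Benjamini-Hochberg adjusted p under 0.05, adjusted over the whole array. By this test 0.328% of all rows were lower and 0.633% higher in the induced cells. ATHB8 has no row under its name, so its own induction was not read here. With 3 arrays a group, their number sets the precision.

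CLE41 fell 2.06-fold in the induced cells, and it was the only one of the 17 measured CLE genes that passed the test. Its log2 signal was 5.22, 5.37 and 5.34 on the induced arrays, against 6.30, 6.16 and 6.59 on the uninduced arrays. The groups did not overlap, and the highest induced array lay 0.79 below the lowest uninduced one. The means were 5.31 ± 0.08 in induced cells and 6.35 ± 0.22 in uninduced cells (SD, n = 3 each). The log2 difference was -1.04 ± 0.14 (SE; limma adjusted p = 0.0393), with a 95% interval of -1.39 to -0.69. As a fold, this interval runs from 1.62 to 2.61 times lower in induced cells. The same-numbered pairs gave differences of -1.08, -0.79 and -1.25. With the groups apart, any other pairing of the arrays would lie below 0 as well. With the replicate number as a block the estimate is the same by construction, and limma gave an adjusted p of 0.0734, which misses the threshold that 0.174% of all rows passed downward in that fit. No single array carried the size of the difference, which lay between -1.14 and -0.92 when any 1 array was left out, but limma called it in 0 of these 6 fits (adjusted p 0.105 to 0.189). Of all 38408 rows, these 6 fits called 1 to 27 lower, against 126 in the reported fit. In replicates 2 and 3 alone the log2 difference was -1.02 (limma adjusted p = 0.163), and 1 row of the array was called lower.

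CLE44, the second gene for the TDIF peptide, lay lower in each same-numbered pair but did not pass the test. Its log2 signal was 10.24, 9.74 and 9.69 on the induced arrays, against 10.53, 10.08 and 10.25 on the uninduced arrays. The groups overlapped, because the induced array of replicate 1 lay above the uninduced array of replicate 2. The means were 9.89 ± 0.30 in induced cells and 10.29 ± 0.23 in uninduced cells (SD, n = 3 each). The log2 difference was -0.40 ± 0.20 (SE; limma adjusted p = 0.751), and its 95% interval of -0.88 to 0.09 covers both no change and a signal 1.84 times lower. Both replicate 1 arrays were the highest of their group, and the differences within the pairs were -0.29, -0.34 and -0.56. With the replicate block the standard error was 0.09, and the adjusted p of 0.184 still missed the threshold.

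A call for CLE41 and none for CLE44 does not show that the 2 genes responded differently, so the difference itself was tested. The log2 signal of CLE41 minus that of CLE44 was -5.02, -4.37 and -4.35 on the induced arrays, against -4.23, -3.92 and -3.66 on the uninduced arrays. All 3 induced values lay below all 3 uninduced values, and the change in this quantity was -0.64. The same-numbered pairs gave -0.79, -0.45 and -0.69. An exact two-sided permutation test gave p = 0.1, the smallest p this test can give with 3 arrays against 3, so it could not pass 0.05 whatever the values. Without induced replicate 1 the change was -0.42 (exact permutation p = 0.2). Only the change between groups can be read from this quantity, since the signals of different probes share no scale. CLE42, whose peptide closely resembles that of CLE41 and CLE44, differed by -0.18 ± 0.12 (SE; limma adjusted p = 0.935). Its means were 5.81 ± 0.17 in induced cells and 6.0 ± 0.04 in uninduced cells (SD, n = 3 each), with a 95% interval for the difference of -0.48 to 0.11. For the TDIF-type genes, the log2 differences therefore ran from -1.04 for CLE41 through -0.40 for CLE44 to -0.18 for CLE42. The 95% intervals of neighbours in this order overlap, CLE41 with CLE44 and CLE44 with CLE42, while those of CLE41 and CLE42 do not. Overlap of such intervals is no test of a difference between genes, and CLE41 minus CLE42 was not tested.

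**Figure D1:**
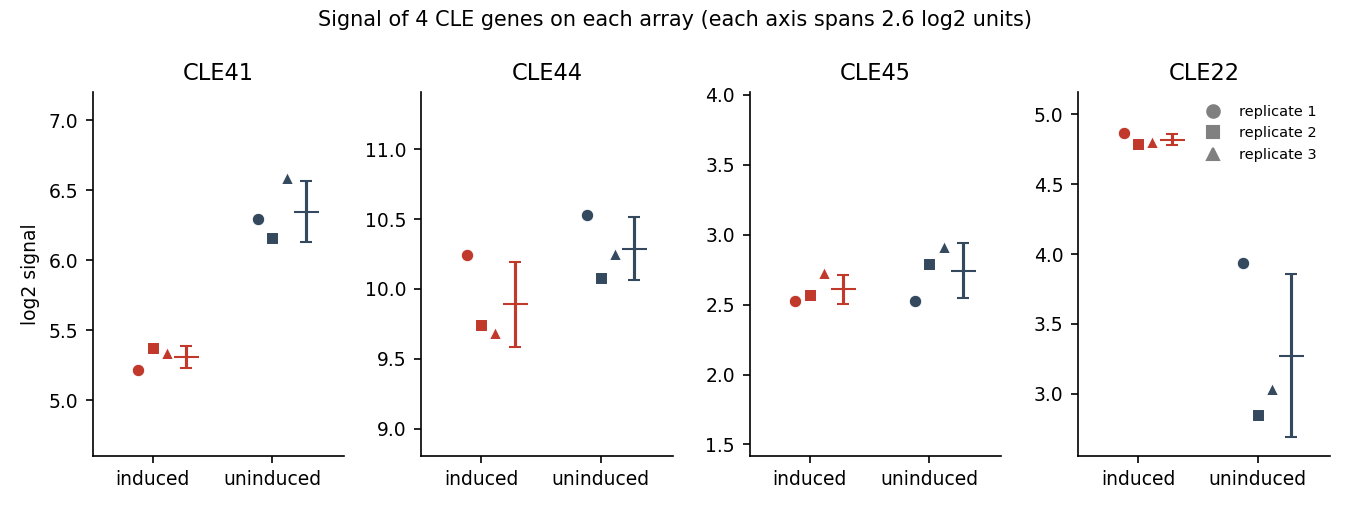
The log2 signal of CLE41, CLE44, CLE45 and CLE22 is plotted for each array, with induced arrays in red on the left and uninduced arrays in blue on the right of each panel. Marker shapes give the replicate number, and the bars give the mean and SD (n = 3). The groups are apart for CLE41, with induced arrays at 5.22 to 5.37, and for CLE22, and they overlap for CLE44 and CLE45.

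CLE45, the peptide gene of the root phloem, had low signals in both groups and showed no difference that passed the test. Its log2 signal was 2.53, 2.57 and 2.73 on the induced arrays, against 2.53, 2.79 and 2.91 on the uninduced arrays. The values of both replicate 1 arrays are equal, and the groups overlapped. The means were 2.61 ± 0.11 in induced cells and 2.74 ± 0.20 in uninduced cells (SD, n = 3 each). The log2 difference was -0.13 ± 0.14 (SE; limma adjusted p = 1.0), with a 95% interval of -0.47 to 0.20. That interval leaves room for a signal up to 1.39 times lower or 1.15 times higher in induced cells. The mean of the row stood at percentile 8.50 of all rows in induced cells and at percentile 10.3 in uninduced cells. Probes differ in brightness, so this place shows only that the row lies near the low end of the signals, and no background level was analysed here. The array therefore does not show whether CLE45 RNA was present.

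CLE22 had a larger difference than CLE41, in the opposite direction, but the spread between its uninduced arrays was wide and it missed the threshold. Its role in vascular tissue is not described here. The log2 signal was 4.87, 4.79 and 4.80 on the induced arrays, against 3.94, 2.85 and 3.03 on the uninduced arrays. The groups did not overlap, and the lowest induced array lay 0.85 above the highest uninduced one. The means were 4.82 ± 0.04 in induced cells and 3.27 ± 0.58 in uninduced cells (SD, n = 3 each). The log2 difference was 1.54 ± 0.29 (SE; limma adjusted p = 0.0847), with a 95% interval of 0.85 to 2.24. As a fold the signal was 2.92 times as high in induced cells, with an interval of 1.80 to 4.72. The same-numbered pairs differed by 0.93, 1.94 and 1.77.

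The uninduced array of replicate 1 set much of the spread of CLE22. Without it the log2 difference was 1.88 and passed in limma (adjusted p = 0.0156). Leaving out any other array gave adjusted p between 0.191 and 0.326. In replicates 2 and 3 alone the log2 difference was 1.85 (adjusted p = 0.0478), and with the replicate block limma gave 0.102. The call also depended on which rows were fitted, which sets both the variance prior and the adjustment. With the 16722 rows that name a single gene in place of all 38408 rows, the SE was 0.27 and the adjusted p 0.0441, and 1.17% of these rows were called higher. The uninduced mean stood at percentile 17.5 of all rows, so the fold rests on uninduced signals that were not shown to lie above background. The induced mean stood at percentile 38.5.

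Over the whole CLE family, 17 of 32 listed genes had a named row, 11 of them with a negative and 6 with a positive log2 difference. Of all 38408 rows 19857 had a negative difference. In limma 1 of the 17 fell and 0 rose, beside 0.328% and 0.633% of all rows. An unadjusted p under 0.05 was reached by 2 genes with a negative and 1 with a positive difference, and by 4.31% of all rows with a negative and 4.17% with a positive one. The groups did not overlap for CLE41 and CLE16, with induced arrays below, and for CLE22, with induced arrays above. Among all rows 6.43% were apart with induced arrays below and 5.82% with induced arrays above. The median log2 difference of the 17 genes was -0.13, beside -0.01 over all rows. The 4 genes CLE41, CLE44, CLE45 and CLE22 were chosen with earlier results of these data known, and the counts over all 17 include them. Of the other 13 CLE genes 8 had a negative difference, and the median of the 13 was -0.06. In limma 0 of these 13 passed. At an unadjusted p under 0.05, 1 of them was lower and 0 higher. The groups were apart for 1 of the 13, CLE16.

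**Figure D2:**
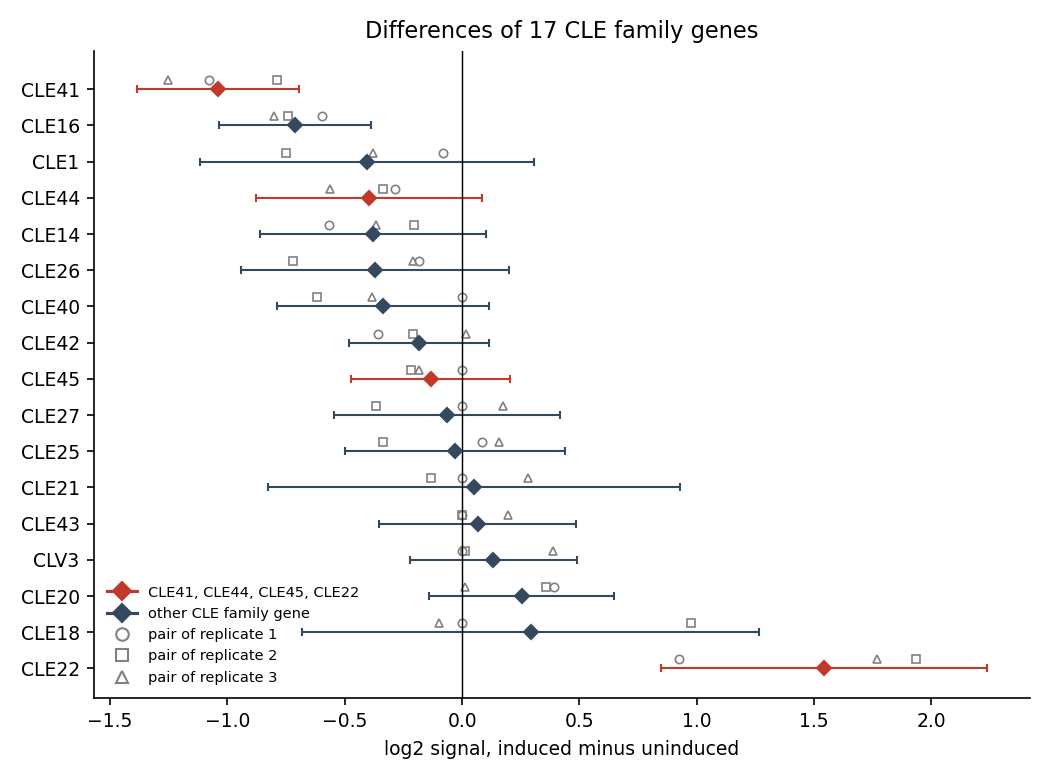
Diamonds give the log2 difference, induced minus uninduced, of each of 17 CLE family genes with its 95% interval, and open symbols give the 3 same-numbered pairs. CLE41 at -1.04 and CLE22 at 1.54 stand at the ends, and the intervals of CLE41, CLE16 and CLE22 do not reach 0.

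CLE16 came closest to CLE41 among the negative differences. Its log2 signal was 6.82, 6.94 and 6.97 on the induced arrays, against 7.41, 7.68 and 7.78 on the uninduced arrays. The 2 groups were apart, with a log2 difference of -0.71 ± 0.13 (SE, n = 3 each; limma adjusted p = 0.0876). With the replicate block limma gave an adjusted p of 0.0716, and with a block that sets replicate 1 apart from replicates 2 and 3 it gave 0.0250. Its pairs differed by -0.60, -0.74 and -0.80.

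The CLE genes named next did not pass the test. CLE26, whose peptide can hold back root phloem in the same way as that of CLE45, differed by -0.37 ± 0.24 (SE, n = 3 each; limma adjusted p = 0.908). CLE25, known as a signal that roots send to leaves under water shortage, differed by -0.03 ± 0.19 (adjusted p = 1.0). CLE40, which restrains stem cells of the root tip, differed by -0.34 ± 0.19 (adjusted p = 0.822). CLE14, known to shorten the root meristem, differed by -0.38 ± 0.20 (0.791), and CLE1 by -0.40 ± 0.29 (0.962). CLE20 was on the other side of 0, at 0.25 ± 0.16 (0.911). CLE14, CLE26 and CLE40 lay lower in each same-numbered pair, as did CLE1, CLE16, CLE41 and CLE44, which makes 7 of the 17 genes. Of all rows 16.4% lay lower in each pair, and a row with equal replicate 1 values, as 6 of the 17 CLE genes have, cannot do so.

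CLE45 shared equal values on the replicate 1 arrays with CLE18, CLE21, CLE27, CLE43 and CLV3, 6 of the 17 genes. CLV3 encodes the peptide that limits stem cells at the shoot tip. Of these 6 genes 2 had a negative and 4 a positive log2 difference, from -0.13 to 0.29. The sign of CLE18 rested on uninduced replicate 2, without which its difference was -0.18 in place of 0.29. The differences of CLE21, CLE27 and CLE43 also changed sign in some fits, as did that of CLE25 among the genes with unequal values, which makes 5 of the 17 CLE genes. The mean log2 signals of the 6 genes reached at most 3.35, while those of the other 11 genes lay between 3.20 and 10.09. Among the 11 genes with unequal values 9 differences were negative and 2 positive, with a median of -0.37. The share of negative differences among all rows with unequal replicate 1 values was not counted, so this lean has no matching background.

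**Figure D3:**
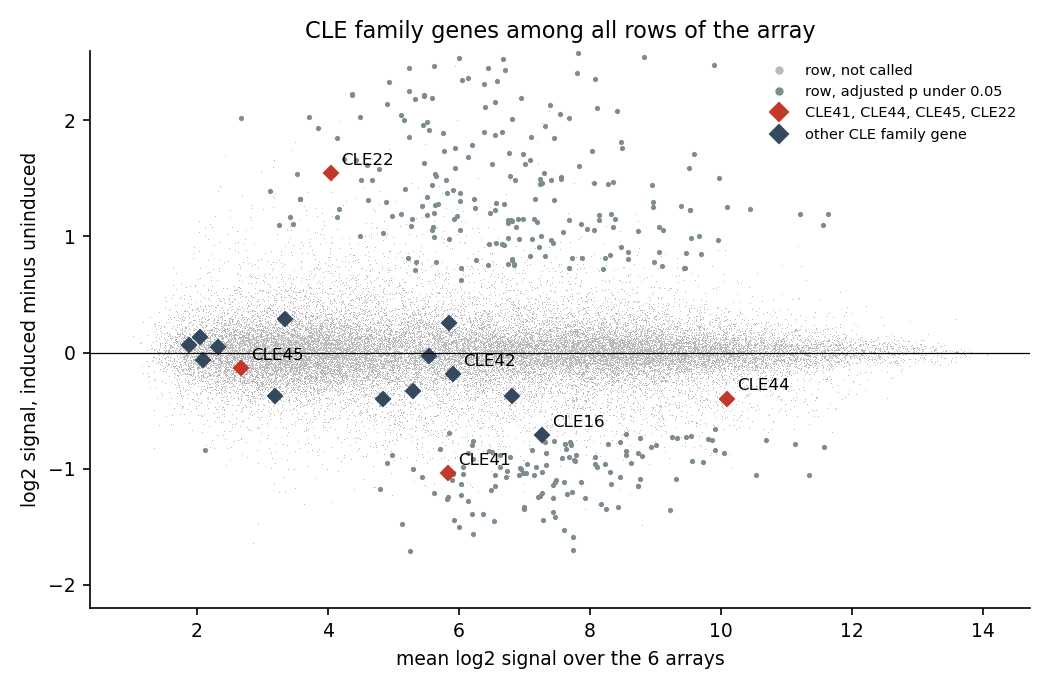
The log2 difference of each row, induced minus uninduced, is plotted against its mean log2 signal over the 6 arrays. Pale points are rows that were not called, darker grey points are rows with an adjusted p under 0.05, and diamonds are the CLE family genes. CLE41 lies among the called rows below 0, and CLE22 lies higher than any other CLE gene, at a lower mean signal than CLE41. A total of 32 rows outside the plotted range are not drawn.

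Few genes that read or relay CLE peptides had a row under their name. Of 37 such genes 4 were measured, and 0 passed in limma in either direction, beside 0.328% of all rows lower and 0.633% higher. An unadjusted p under 0.05 was reached by 0 of the 4, beside 4.31% of all rows downward and 4.17% upward. With shares this small, 0 of 4 says little about these genes. TDR, WOX4, BIN2 and BAM3 were not measured under their names, so the receptor and the targets of the CLE41 peptide were not analysed here. PXL1 and PXL2, receptor kinases related to TDR, differed by -0.04 ± 0.15 and 0.10 ± 0.12 (SE, n = 3 each; limma adjusted p = 1.0 for both). Each has a further row of lower signal, with differences of -0.03 and 0.08. The main row of PXL2 and both further rows held equal values on the replicate 1 arrays. OPS, a polar protein of young phloem that counters CLE45 signalling in the root, differed by 0.04 ± 0.23 (adjusted p = 1.0), and both replicate 1 arrays held equal values. POL, a phosphatase that acts downstream of the receptor CLV1, differed by -0.07 ± 0.12 (adjusted p = 1.0).

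Marker genes of vascular tissue were likewise thin. Of 42 genes of procambium, phloem and xylem 4 had a named row, of which 2 mark procambium, 2 phloem and 0 xylem. In limma 0 of the 4 passed, beside 0.328% of all rows lower and 0.633% higher, so this count says little. At an unadjusted p under 0.05, 1 of the 4 was higher, beside 4.17% of all rows. This was LHW, a regulator of vascular cell division, with 8.79, 8.75 and 8.73 on the induced arrays, against 8.54, 8.35 and 8.44 on the uninduced arrays. Its groups were apart, as in 5.82% of all rows with induced arrays above. The log2 difference was 0.31 ± 0.10 (SE; limma adjusted p = 0.403). PHV, a close relative of ATHB8, differed by -0.02 ± 0.11 and SWEET11, a sugar carrier of phloem, by -0.44 ± 0.26 (adjusted p = 0.880), with equal values on the replicate 1 arrays. Of 10 markers of photosynthetic tissue, root hairs, epidermis and guard cells 2 had a named row. EXPA7 of root hairs differed by -0.10 and FMA of guard cells by -0.15, both with equal replicate 1 values and an adjusted p of 1.0 in limma. A bulk RNA sample cannot tell fewer cells of a type from less RNA per cell.

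The profiles of the 4 genes over the 6 arrays differed from each other. Pearson's r of the log2 signals was -0.89 between CLE41 and CLE22, 0.62 between CLE41 and CLE44, and -0.43 between CLE44 and CLE22. CLE45 gave 0.56 with CLE41, -0.13 with CLE44 and -0.71 with CLE22. These values describe 6 arrays that share the 2 groups and the offset of replicate 1, and no p is given. Among 9200 other gene names with unequal replicate 1 values, the profiles most like that of CLE41 were those of AT3G29130, AT5G14700 and AT5G54370, with r between 0.994 and 0.995. Likeness in shape does not mean likeness in size, since AT3G29130 differed by -0.14, AT5G14700 by -0.35 and AT5G54370 by -0.84 ± 0.13 (SE; limma adjusted p = 0.0509). The profiles most like that of CLE44 were those of AT1G30700, AT1G76460 and AT3G51070, with r of 0.996 to 0.999 and differences from -0.47 to -0.25. For CLE22 they were those of AT4G06744, AT4G18465 and AT3G54390, with r of 0.992 to 0.995 and differences of 0.98, 0.12 and 0.49. For CLE45, compared with 16541 gene names, they were those of AT4G09850, AT3G05327 and RALFL27, with r of 0.993 to 0.999 and adjusted p of 1.0 in limma.

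The protein-coding genes next to each of the 4 genes on the chromosome were read as well, a choice made after seeing the data. Of 7 such neighbours with a named row 0 passed in limma, beside 0.328% of all rows lower and 0.633% higher. An unadjusted p under 0.05 was reached by 1 of the 7, beside 4.31% of all rows downward and 4.17% upward. Counts over 7 genes say little beside such shares. AT3G24760, on 1 side of CLE41, differed by 0.08 ± 0.10 (SE, n = 3 each; limma adjusted p = 1.0). AT3G24780, on the other side of CLE41, had 5.73, 5.60 and 5.46 on the induced arrays, against 4.90, 4.68 and 4.97 on the uninduced arrays. It thus lay higher where CLE41 lay lower, by 0.75 ± 0.13 on the log2 scale (adjusted p = 0.0742). Beside CLE22, MED19A differed by -0.08 ± 0.10 (adjusted p = 1.0) and AT5G12236 by 0.63 ± 0.30 (adjusted p = 0.718). Both rows held equal values on the replicate 1 arrays, and the other pairs of AT5G12236 differed by 1.03 and 0.87. The 2 neighbours of CLE44, AT4G13190 and AT4G13200, differed by -0.04 and 0.26, and AT1G69580 beside CLE45 by 0.07, all with an adjusted p of 1.0. AT3G24760 and AT1G69580 also held equal values on the replicate 1 arrays. ZFHD1, on the other side of CLE45, has no row under its name.

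The calls of CLE41, CLE22 and CLE16 changed with the fit, while their directions held in each fit that was run. CLE41 passed in 10 of 18 alternative fits (adjusted p 0.0183 to 0.189). CLE22 passed in 5 of 18 (0.0151 to 0.326) and CLE16 in 6 of 19 (0.0227 to 0.346). CLE44 passed in 0 of 19 limma fits (0.110 to 1.0) and CLE45 in 0 of 17 (0.545 to 1.0). In these fits the log2 difference of CLE44 lay between -0.57 and -0.28 and that of CLE45 between -0.24 and -0.05. With the block that sets replicate 1 apart, CLE41 (0.0316), CLE22 (0.0378) and CLE16 (0.0250) all passed in limma. That fit called more rows of the whole array as well, 1106 against 369 in the reported fit.

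**Figure D4:**
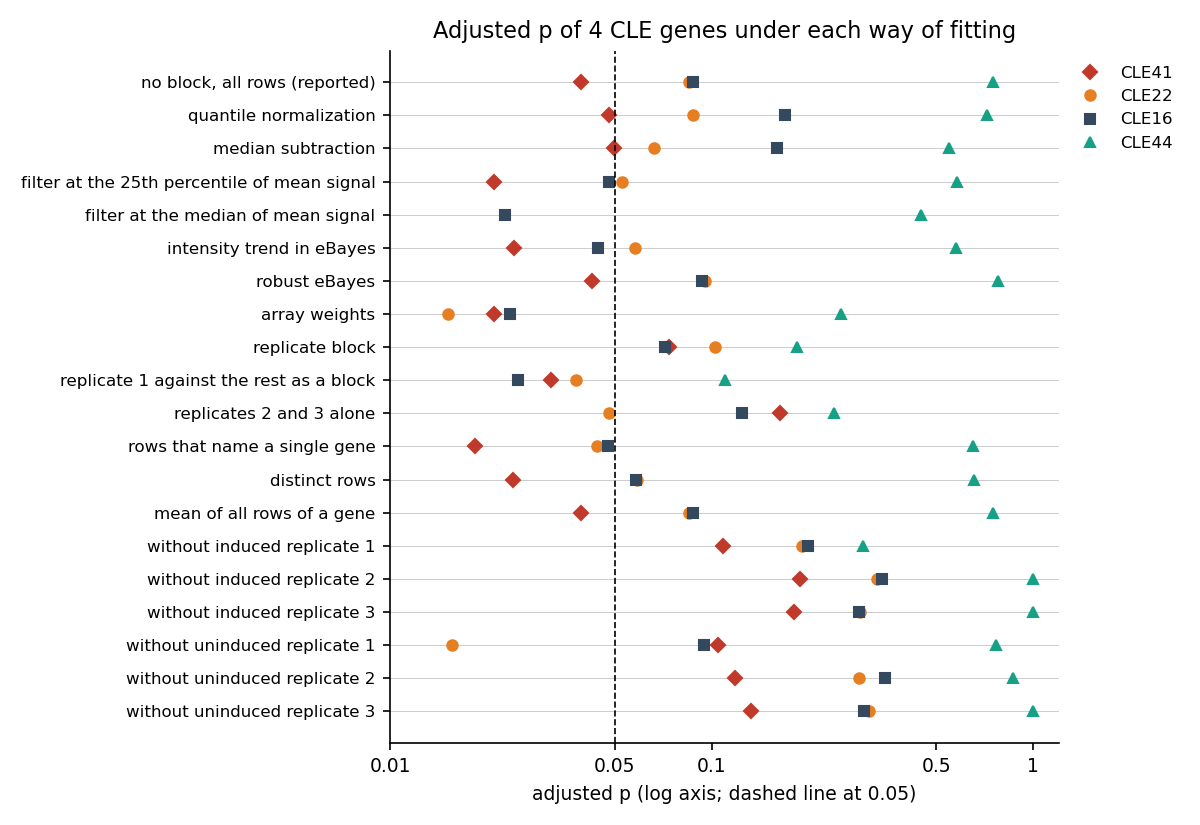
The adjusted p of CLE41, CLE22, CLE16 and CLE44 is plotted on a log axis for the reported fit, in the top line, and for each alternative below it, with a dashed line at 0.05. CLE41 passes with all 6 arrays and no replicate block and lies between 0.105 and 0.189 when 1 array is left out, and CLE44 passes in no fit. A gene with no symbol in a line was removed there by the filter on low signal.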

How the data were processed

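Whole-transcript arrays were hybridised with sense-strand DNA made from total RNA, per the labels. The deposited values are log2 signals, for which the submitters' processing notes name Affymetrix Expression Console 1.3. Background correction, normalization and genome build are not given in the sources used here, so no coordinates are printed. Rows were named from the platform annotation, and the RefSeq gene table (TAIR10.1) paired symbols with locus codes and neighbours. Of 38408 rows 16722 name a single gene. For genes with several rows the row with the highest mean was used. Tests used limma 3.58.1 (lmFit, eBayes, no filter; R 4.3.3), checked on simulated data with independent noise for each array. The simulated arrays had no shared replicate offset and no equal replicate 1 values, so the check does not cover these. The change of CLE41 minus CLE44 was tested by exact permutation. After subtracting group means, same-numbered arrays correlated at 0.633, 0.268 and 0.248 across rows, all above 0.1, but the pairs of replicates 2 and 3 with crossed numbers gave 0.244 and 0.260. A replicate block was therefore fitted as well. The members and lists were chosen with earlier results of these data known. All measured genes of the lists could be named, and 3 genes most like each member. Alternatives were other normalizations, filters, priors, weights, blocks, sets of rows and arrays left out. Figures were drawn with matplotlib 3.10.9.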

Additional observations from a re-analysis of the deposited data

How the results depend on the processing

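With the replicate block 0 CLE family genes passed in limma, against 1 in the reported fit, and 242 rows against 369. An unadjusted p under 0.05 was reached by 5 CLE genes with the block and by 3 in the reported fit. The share of all rows at that unadjusted p was not counted with the block, so this rise has no matching background. The log2 difference of CLE41, -1.04, lost its call with the replicate block and, at -1.02, in replicates 2 and 3 alone, and it lay between -1.14 and -0.92 without each array in turn. The log2 difference of CLE22 passed with array weights (1.73), with replicate 1 set apart as a block and over rows that name a single gene (1.54 in both), in replicates 2 and 3 alone (1.85), and in 1 of 6 fits without 1 array (1.33 to 1.88). The CLE family count was 2 with the 25th percentile filter and with an intensity trend, 3 with array weights, with replicate 1 set apart as a block and over rows that name a single gene, and 0 to 1 without 1 array, where the 1 gene was CLE22. It was also CLE22 in replicates 2 and 3 alone. The count of rows was 691 with the 25th percentile filter, 827 with the median filter, 746 with an intensity trend, 977 with array weights, 1106 with replicate 1 set apart as a block, 80 in replicates 2 and 3 alone, 613 over distinct rows and 48 to 167 without 1 array. The cause of these shifts was not tested. Of the called rows 126 were lower and 243 higher in the reported fit, against 363 and 383 with an intensity trend and 463 lower and 364 higher with the median filter. Of the 4 genes CLE44 alone could be fitted with the median filter, and CLE45 could not be fitted with the 25th percentile filter. The 19 alternatives left the counts of CLE signalling and vascular genes at 0. The 9 run for CLE41 minus CLE44 kept its sign, with values from -0.79 to -0.42. For the replicate block among them, an exact sign-flip test of the 3 pair differences gave p = 0.25, the smallest p it can give. The others gave exact permutation p from 0.1 to 0.3. The replicate block changed no other call among the CLE, signalling and vascular genes. Signal over background was not analysed, which limits CLE45 and the uninduced signals of CLE22.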
